A study of Sus scrofa domesticus with 4 samples.

Results

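Fatty acid and sterol synthesis genes are described here as 7 genes measured in pig endometrium, the inner layer of the uterus, after culture with orexin B. They are FASN, ACACA, ACLY and SCD of fatty acid synthesis, FDPS of sterol synthesis, and SREBF1 and INSIG1 of the SREBP system that regulates both. Members are all array probes whose RefSeq accession leads to 1 of these symbols, which gave 24 probes of 7 genes out of 43603 probes and 3029 named genes. Each of 4 two-colour Agilent arrays compares RNA of treated explants with RNA of untreated explants. Gilts of Large White x Polish Landrace, aged 7 to 8 months and weighing 120 to 130 kg, provided the tissue on days 15 to 16 of gestation, with conceptuses present. Slices from the middle of the uterine horns received orexin B (OXB, a neuropeptide also called hypocretin 2) at 10 nM for 24 h after 2 h of preincubation. Untreated controls were kept in the same medium without it, each culture in duplicate, so both groups are cultured tissue. The labels count 4 gilts and 4 separate experiments but do not say which array holds which gilt, so the arrays are the replicates (n = 4). The p-values measure spread between arrays and no other level, and those of limma also draw on the spread of all tested probes.

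Cells make fatty acids from citrate that leaves the mitochondria. ATP citrate lyase (ACLY) cleaves it to acetyl-CoA, acetyl-CoA carboxylase (ACACA) commits that to malonyl-CoA, fatty acid synthase (FASN) builds palmitate, and stearoyl-CoA desaturase (SCD) inserts a double bond into the product. Farnesyl diphosphate synthase (FDPS) works in the mevalonate pathway, from which cholesterol and isoprenoids come. SREBF1 encodes SREBP-1, a membrane-bound transcription factor that induces lipogenic genes once it is cut free, and INSIG1 holds the SREBP precursor with its escort SCAP in the endoplasmic reticulum when sterols are plentiful. In uterine tissue these lipids serve membranes, lipid droplets and the supply of steroid precursors.

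Among the members, FASN and FDPS had higher signal with orexin B on 4 of 4 arrays in their brightest probe, while SCD, INSIG1, ACLY and SREBF1 differed in sign between arrays. No member passed the test over all probes. A ratio is given throughout as log2 of treated over untreated, so that 1 means a doubling. Of the 24 member probes, 17 probes of 6 genes were bright enough to test, meaning well above background on all 4 arrays in treated or in untreated RNA. All 17 were above background in all 8 channels. Limma called 0 of the 17 at an adjusted p under 0.05, as it called 0 of 13781 probes in all (0%), with an adjusted p of 0.999 for every member probe. At an unadjusted p under 0.05 there were 2 member probes, 1 of FASN and 1 of FDPS, both higher with orexin B, beside 1.72% of all tested probes called higher and 3.59% called in either direction. That count was 0 of 17 without array 1. With median centring in place of loess it was 11 of 17, all 7 SCD probes among them, beside 7.84% of all tested probes, and 0 passed adjustment. The ratio was above 0 in 15 of 17 member probes, beside 7318 of all 13781, but the probes of a gene share their target and the 17 are not independent. Their median was 0.17, against 0.02 for all tested probes, and 0.35 without array 2, the array scanned on another day. Leaving out array 1 or array 4 brought the median of the 17 probes to 0.03 or 0.04, with 12 or 11 of them above 0.

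**Figure D1:**
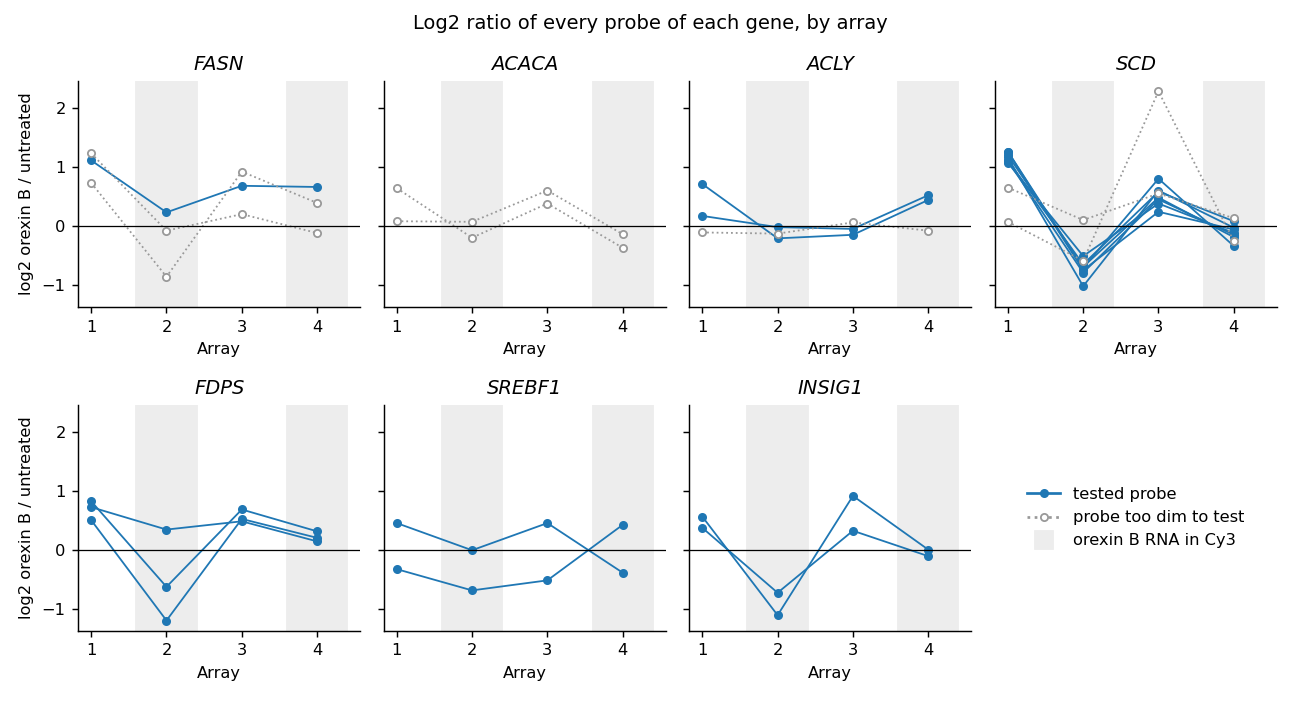
Log2 ratio of orexin B over untreated RNA (y axis) on each of the 4 arrays (x axis) for every probe of the 7 genes. Filled points are tested probes, open points are probes too dim to test, lines join the values of 1 probe, and grey bands mark arrays with orexin B RNA in Cy3. The 7 tested SCD probes lie between 1.07 and 1.26 on array 1 and between -1.02 and -0.51 on array 2, while the tested FASN probe is above 0 on all 4 arrays.

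FASN had the highest ratio of the members. In the tested FASN probe (A_72_P223177), which detects the synthase that assembles palmitate, the normalised log2 signal of untreated RNA was 12.61, 12.53, 13.07 and 12.64 on arrays 1 to 4. With orexin B it was 13.72, 12.76, 13.75 and 13.29. Treated RNA was therefore brighter within each array, although the treated value of array 2 lay below the untreated value of array 3. The ratios were 1.11, 0.23, 0.68 and 0.66. The fit gave 0.67 ± 0.19 (moderated SE, n = 4; 95% interval 0.23 to 1.11), a 1.59-fold higher signal, and limma's adjusted p = 0.999 did not pass the threshold. Its unadjusted p was under 0.05, but not when array 1 was left out, where the ratio was 0.56. A ratio above 0 on 4 of 4 arrays was seen in 3.74% of tested probes with 4 values, and 0.98% of tested probes had a ratio above that of FASN. An exact sign-flip test over the 4 arrays gave p = 0.125 (two-sided), the smallest p that 4 arrays allow, and an adjusted value of 0.375 over the 6 genes.

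Both other FASN probes were dim and add little. A_72_P647699 was above background in 5 of 8 channels and had ratios of 0.73, -0.86, 0.92 and 0.39. A_72_P175196 was above background in 3 of 8 channels, at 1.23, -0.08, 0.20 and -0.12. Both were above 0 on arrays 1 and 3 and below 0 on array 2. They were above background in only 1 and 0 Cy3 channels, so these ratios largely compare a signal with background and say little on direction. FASN thus rests on 1 probe.

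For ACACA, whose product makes the malonyl-CoA that FASN uses, no probe could be tested. A_72_P442314 had ratios of 0.08, 0.07, 0.60 and -0.14, and A_72_P305844 had 0.64, -0.20, 0.38 and -0.37. Both were above background in 3 of the Cy5 channels and in 0 of the Cy3 channels, so these ratios compare a signal with background and carry no direction.

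ACLY, which supplies cytosolic acetyl-CoA, had 2 tested probes with like results. The brighter (A_72_P165331) stood at 0.71, -0.21, -0.15 and 0.44 on arrays 1 to 4, and the other (A_72_P447091) at 0.17, -0.02, -0.05 and 0.52. Arrays 1 and 4 were above 0 and arrays 2 and 3 just below it in both probes. The fit gave 0.20 ± 0.22 (n = 4; 95% interval -0.32 to 0.72; limma, adjusted p = 0.999) and 0.15 ± 0.19, and without array 1 the brighter probe was at -0.02. A dim ACLY probe (A_72_P710913) lay between -0.13 and 0.06 on the 4 arrays. The interval of the brighter probe includes the FASN estimate of 0.67, while that of the other probe (-0.28 to 0.59) ends below it. Both intervals include 0. As the 2 ACLY probes share their RNA and differ on this point, these data do not settle whether ACLY responds like FASN.

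SCD, like INSIG1, had ratios that swung widely between arrays. In its brightest probe (A_72_P088586) the normalised log2 signal of untreated RNA was 12.37, 11.87, 12.37 and 11.44, and that of treated RNA 13.45, 11.36, 12.74 and 11.32. Treated signal was higher on arrays 1 and 3 and lower on arrays 2 and 4, with ratios of 1.07, -0.51, 0.38 and -0.12. All 7 tested SCD probes followed this, with medians over the probes of 1.16, -0.71, 0.48 and -0.12 on arrays 1 to 4. Each of the 7 probes ranked the arrays in the order 1, 3, 4 and 2, but as they share their RNA they add no replicate of the treatment. Arrays 1 and 3 carry orexin B RNA in Cy5 and arrays 2 and 4 in Cy3. The fit therefore gave SCD a dye term, the mean log2 of Cy5 over Cy3, that was larger than its treatment ratio. The dye term ran from 0.52 to 0.78 over the 7 probes. Their treatment ratio ran from 0.15 to 0.28 (95% interval of the brightest probe -0.26 to 0.67). Without array 1 the 7 SCD probes lay between -0.08 and 0.15, without array 4 between -0.07 and 0.16, and without array 3 between 0.31 and 0.43. Without array 2 they lay between 0.30 and 0.46. For the SCD probe with the smallest dye term, 3.48% of all tested probes had a larger one. Of 2 dim SCD probes, A_72_P586661 stood at 0.65, 0.10, 0.55 and 0.13, and A_72_P558694 at 0.07, -0.59, 2.28 and -0.26.

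**Figure D2:**
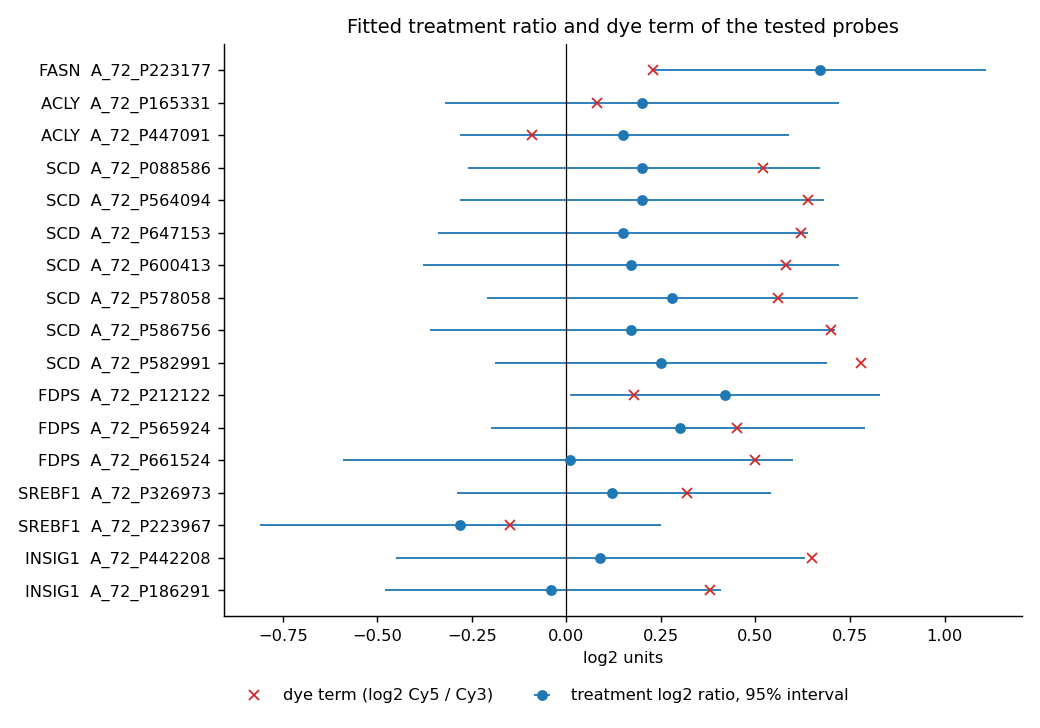
Fitted treatment log2 ratio with its 95% interval (circles and bars) and fitted dye term (crosses), both in log2 units on the x axis, for the 17 tested probes (y axis). Only the intervals of FASN A_72_P223177 and FDPS A_72_P212122 lie above 0, and all 7 SCD probes have a dye term (0.52 to 0.78) larger than their ratio (0.15 to 0.28).

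FDPS, the sterol branch member, had 3 tested probes that differed on 1 array. Its brightest probe (A_72_P212122) had untreated log2 signals of 12.16, 12.50, 12.90 and 12.15 and treated signals of 12.88, 12.85, 13.37 and 12.29. Treated RNA was higher on every array, with ratios of 0.72, 0.34, 0.48 and 0.14. The fit gave 0.42 ± 0.17 (n = 4; 95% interval 0.01 to 0.83), or 1.34-fold, with an adjusted p = 0.999 by limma. Its unadjusted p, just under 0.05, was above 0.05 when any 1 array was left out, with ratios of 0.36 to 0.48. The exact sign-flip test gave p = 0.125 (adjusted 0.375 over the 6 genes). The other probes agreed on arrays 1, 3 and 4 but were below 0 on array 2, where A_72_P565924 stood at -0.63 and A_72_P661524 at -1.20. Their fitted ratios were 0.30 ± 0.21 and 0.01 ± 0.25, and without array 4 they were 0.06 and -0.34. Without array 2 the 3 probes lay between 0.35 and 0.53. In the scanner software's own ratio the brightest probe was at 0.27.

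SREBF1, the lipogenic transcription factor, had 2 tested probes that disagreed. A_72_P326973 had ratios of 0.45, -0.01, 0.45 and -0.39, and A_72_P223967 had -0.33, -0.69, -0.52 and 0.42. They were of opposite sign on arrays 1, 3 and 4. The fit gave 0.12 ± 0.18 (95% interval -0.29 to 0.54) and -0.28 ± 0.23 (95% interval -0.81 to 0.25), so no direction can be given for this gene. Leaving out array 2 gave 0.03 for A_72_P326973 and 0 for A_72_P223967, and leaving out array 4 gave 0.22 and -0.56. What the probes detect, such as different transcript forms, was not tested.

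INSIG1, itself a target of SREBPs, shared part of the SCD pattern across the arrays. Its brighter probe (A_72_P442208) stood at 0.56, -1.11, 0.91 and 0.00, and the other (A_72_P186291) at 0.37, -0.73, 0.32 and -0.11. Ratios were above 0 on arrays 1 and 3 and lowest on array 2, as in SCD, but the brighter probe was highest on array 3 and not on array 1. The fitted ratios were 0.09 ± 0.23 (95% interval -0.45 to 0.63) and -0.04 ± 0.19, beside dye terms of 0.65 and 0.38. The brighter probe was at 0.37 without array 2 and at -0.18 without array 4.

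**Figure D3:**
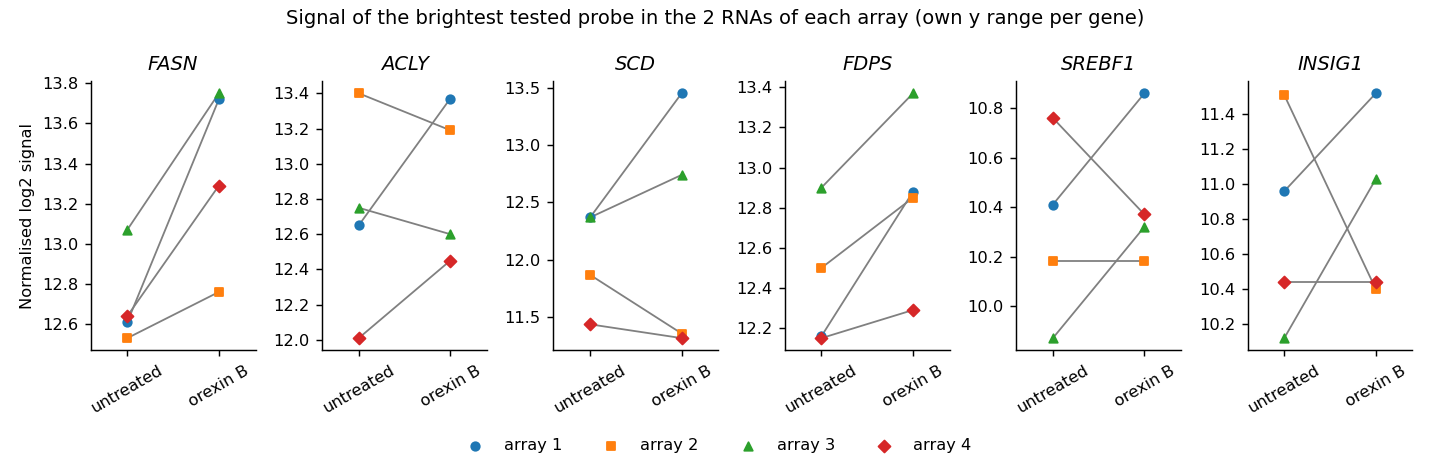
Normalised log2 signal (y axis, own range per gene) of the brightest tested probe in untreated and orexin B RNA (x axis) of arrays 1 to 4; each line joins both RNAs of 1 array. All 4 lines go up for FASN and FDPS, and 2 of 4 go up for ACLY and SCD.

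Read by array, the count of member probes above 0 differed widely, and 7 of the 17 are SCD probes with 1 target. On array 1, 16 of 17 tested member probes were above 0 (median 0.82), beside 48.1% of all tested probes. Array 3 had 14 of 17 (median 0.48), beside 50.6% of all. In contrast, array 2 had 2 of 17 (median -0.69), beside 54.4% of all, and array 4 had 8 of 17 (median 0.00), beside 52.6%. The 2 probes above 0 on array 2 were the brightest ones of FASN and FDPS, and the brightest of SREBF1 was at -0.01. Dye orientation splits the arrays in the same way, and array 2 also had 46.8% of spots well above background in Cy5, against 82.4% to 86.7% on the others. The dye term exceeded the treatment ratio in size in 12 of 17 member probes, beside 64.1% of all tested probes.

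Directions here follow the dye named for each single array. A general labelling protocol, given identically for all 4, can instead be read as orexin B in Cy5 throughout. Under that reading SCD and INSIG1 would stand highest, at 0.52 and 0.65, and FASN would stand at 0.23. Such a fit can hold no dye term, so dye and treatment cannot be told apart in it. Its ratios equal the dye terms of the reported fit. All 7 SCD probes would then lie between 0.52 and 0.78. In that fit 15.6% of all tested probes had an unadjusted p under 0.05, 8 of the 17 member probes among them, and 0 probes passed adjustment. The order of the members by ratio thus depends on the reading of the labels, and the authors' value table turns the same 2 arrays as the dye labels do.

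Whether FASN differed from the other members could be asked only of the 4 arrays. FASN minus ACLY averaged 0.47 (lowest 0.22, highest 0.83), FASN minus SCD 0.46 (0.03 to 0.78) and FASN minus SREBF1 0.54 (0.24 to 1.05), each above 0 on 4 of 4 arrays. FASN minus FDPS averaged 0.25 (-0.11 to 0.52) and FASN minus INSIG1 0.58 (-0.23 to 1.34), each above 0 on 3 arrays. Exact two-sided sign-flip tests gave p = 0.125 for the first 3 and 0.25 for the other 2, with adjusted values of 0.208 and 0.25 over the 5 pairs. With 4 arrays none of these could reach 0.05. Only pairs with FASN were examined, and FASN has the highest ratio of the members in these same arrays. Differences above 0 are thus partly built in, and the tests cannot decide the question.

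The wider pathways showed no common direction beyond the members. Of 29 genes listed for fatty acid synthesis, 9 had a named probe and 3 were tested, all of them members and all with a ratio above 0 (median 0.20). That median was 0.03 without array 1, where ACLY was below 0, 0.36 without array 2, 0.41 without array 3 and 0.11 without array 4, and 0.63 with median centring. ACACB, ACSS2, SCD5, FADS1 and FADS2, which serve carboxylation, acetyl-CoA supply and desaturation, were too dim to test. Of 23 sterol synthesis genes 8 were tested, 3 with a higher and 5 with a lower ratio (median -0.08; -0.14 over the 7 that are no members). On the sterol list, too, 1 array or the centring can set the side of 0. The sterol median was 0.15 without array 1, with 5 of 8 above 0, and median centring in place of loess, which moves the median of all tested probes to 0.28, put 7 of 8 above 0. The median over all 1637 tested genes was -0.02, with 718 higher and 919 lower. Besides FDPS, the highest was SQLE (squalene epoxidase) at 0.18 ± 0.24. PMVK, a mevalonate pathway kinase, stood at -0.21 ± 0.21. CYP51, MSMO1, NSDHL and HSD17B7, enzymes of the later sterol steps, lay between -0.17 and 0.09. FDPS was the only gene of the sterol list at an unadjusted p under 0.05.

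Of 25 listed SREBP regulators 11 were tested, 6 with a higher and 5 with a lower ratio (median 0.02), and 0 reached an unadjusted p under 0.05 in limma. Their median was -0.17 without array 1 and -0.21 without array 4. Median centring put 8 of 11 above 0, with a list median 0.09 above that of all tested probes. The highest was PGRMC1, a haem-binding membrane protein, at 0.15 ± 0.23 with a value on 3 arrays. SCAP, the SREBP escort, stood at 0.04 ± 0.21 and NR1H3, the liver X receptor alpha that induces SREBF1, at 0.03 ± 0.20. The lowest were PRKAG1, a regulatory subunit of AMP-activated kinase, at -0.34 ± 0.24 and NFYB, a subunit of the transcription factor NF-Y, at -0.24 ± 0.18. PRKAA2, the catalytic AMP-activated kinase subunit alpha 2, stood at -0.24 ± 0.17 and was below 0 on arrays 1 and 3 but above 0 on arrays 2 and 4, with a dye term of -0.74.

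Genes that take up, move or use lipids did not share a direction either. Sterol uptake, transport and efflux genes numbered 6 tested of 19, with 3 higher and 3 lower (median 0.02). SCARB1, the receptor for high density lipoprotein, was highest at 0.32 ± 0.18 and above 0 on 4 of 4 arrays. NPC2, which carries cholesterol out of lysosomes, followed at 0.21 ± 0.27. LIPA, the lysosomal acid lipase, was lowest at -0.42 ± 0.18 and below 0 on 4 of 4 arrays (-0.06, -0.57, -0.62 and -0.45; limma, adjusted p = 0.999), and STARD4, a sterol transfer protein, stood at -0.13 ± 0.19. Genes of fatty acid oxidation, uptake and storage numbered 16 tested of 32, with 5 higher and 11 lower (median -0.05). Without array 3 there were 9 higher and 7 lower, and with median centring 14 higher and 2 lower. Median centring moves the median of all tested probes to 0.28, against which the median of this list was -0.04. HADH and ACADM, mitochondrial enzymes of beta-oxidation, were highest at 0.35 ± 0.19 and 0.17 ± 0.29. ACSL1 and ACSL4, which activate fatty acids with coenzyme A, were lowest at -0.34 ± 0.17 and -0.29 ± 0.18. In these 5 lists limma called 0 genes at an adjusted p under 0.05.

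**Figure D4:**
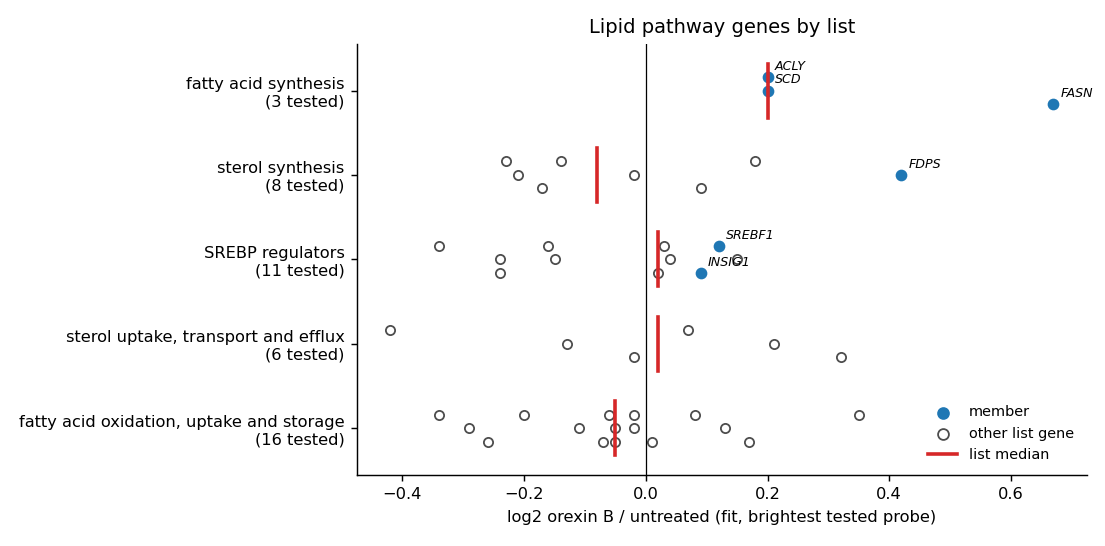
Fitted log2 ratio (x axis) of the brightest tested probe of each gene in 5 lipid pathway lists (y axis); filled points are members, open points other genes, red bars list medians. FASN (0.67) and FDPS (0.42) lie furthest to the right, and the list medians lie between -0.08 and 0.20.

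Nearness of pattern was measured as the Euclidean distance between the 4 ratios of 2 genes, over 1598 other named genes. Nearest to FASN were the growth factor receptor gene MET (distance 0.40), NME2 (0.43) and FXYD3 (0.45). Nearest to FDPS were PFDN6 (0.21), SRSF2 (0.22) and the oxytocin receptor gene OXTR (0.22), which stood at 0.85, 0.29, 0.61 and 0.04. For SCD they were BMP2 (0.15), RPS23 (0.16) and CDK2AP1 (0.16), and for INSIG1 GCHFR (0.25), CPE (0.47) and SCAMP2 (0.56). ACLY was nearest to CCT3 (0.15), CWF19L1 (0.18) and PCCB (0.19), and SREBF1 to FBXO21 (0.17), CDH24 (0.18) and RPL23 (0.19). Among the members themselves FASN lay closest to FDPS (0.69) and furthest from INSIG1 (1.60), a comparison within 6 genes only. SCD lay closest to SREBF1 (0.85), then to ACLY (0.9), and equally far from INSIG1 and FDPS (0.96).

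An explant holds several cell types, and in such RNA fewer cells of a type and less RNA per cell cannot be told apart. The medians of marker lists below follow the loess setting, and those of epithelium, endothelium and smooth muscle lay above 0 with median centring. That setting moves the median of all tested probes to 0.28, against which these lists lay at -0.08, -0.15 and -0.11. All 6 epithelial markers on the array and 3 of 4 stromal ones were well above background in all channels, while the stromal marker THY1 was too dim to test. Of 6 tested epithelial markers 4 had a lower ratio (median -0.19; 0.13 without array 2; array medians -0.69, -0.51, -0.24 and 0.52). Their summed linear signal ran from 56100 to 98300 in treated and from 63300 to 142000 in untreated RNA. The 3 tested stromal markers had array medians of 0.76, 0.19, 0.67 and -0.67. Their summed signal ran from 17200 to 41300 in treated and from 15800 to 38600 in untreated RNA. Macrophage markers were lower in 4 of 5 (median -0.42, summed signal 5800 to 10000 treated and 6460 to 18100 untreated). If all arrays are read as orexin B in Cy5, dye and treatment cannot be told apart. The macrophage median then turns to 0.21, that of T and NK cell markers to 0.46 and that of smooth muscle markers to 0.58. The 4 smooth muscle markers had array medians of 0.80, -0.69, 0.03 and -0.52 (summed signal 16400 to 39200 treated and 20400 to 32400 untreated). Markers of T and NK cells were below 0 in all 3 that could be tested (median -0.27), as were 3 of 4 endothelial ones (median -0.21). Of 7 trophoblast markers on the array 2 were tested and the others were too dim. TFAP2C stood at 1.14 (limma, adjusted p = 0.999) and IL1B2 at -0.42. Of the 5 adipocyte markers none was tested: CIDEC was above background in 0 channels and PLIN1 in 1. ADIPOQ and LEP were above background in up to 3 Cy5 channels and FABP4 in up to 4, each in 0 Cy3 channels. Array medians of the stromal, smooth muscle, endothelial (0.60), trophoblast (1.01) and macrophage (-0.21) markers were highest on array 1. The trophoblast median there joins TFAP2C at 2.14 and IL1B2 at -0.12. The epithelial median was lowest on array 1, and that of T and NK cells was highest on array 3 (0.03). Brightest probes of FASN, SCD, ACLY and FDPS were also highest on array 1, and that of INSIG1 on array 3. The part of these cell types in the members' ratios was not tested.

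**Figure D5:**
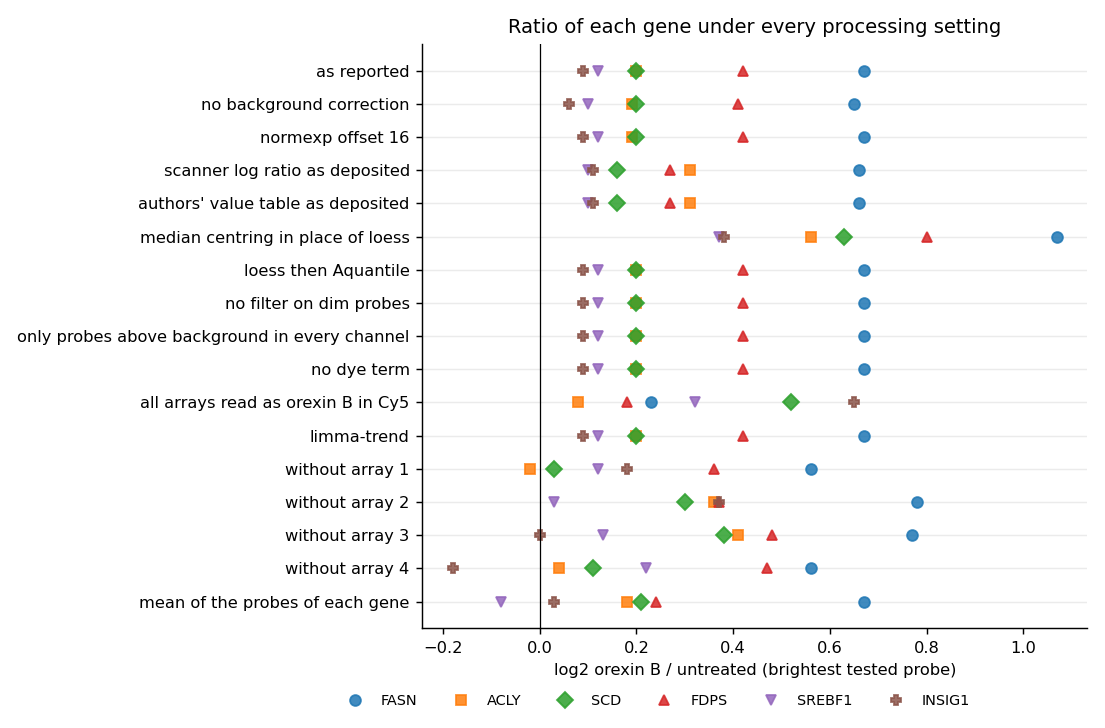
Fitted log2 ratio (x axis) of the brightest tested probe of 6 member genes under the reported and 16 alternative settings (y axis), the last of which takes the mean of a gene's probes instead. FASN lies between 0.23 and 1.07 and is the highest of the 6 under each setting except the one that reads all arrays as orexin B in Cy5, where INSIG1 is highest (0.65). In that setting dye and treatment cannot be told apart.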

How the data were processed

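The members and gene lists were chosen with earlier results of these data known. The authors deposited scanner files with the intensities of both channels; per the file headers, the array design is 026440 and the software Agilent Feature Extraction 10.7.3.1. Per the file headers, a log10 ratio (Cy5 to Cy3, corrected by that software for background and dye) stands beside them. The authors deposited log2 ratios whose columns equal the scanner's processed Cy5 to Cy3 ratio, turned on arrays 2 and 4 (correlation 1 on arrays 1 and 3, -1 on arrays 2 and 4) and are not centred (medians 0.18, 0.29, 0.01 and 0.03).

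From the median spot and local background signals, background was corrected in limma 3.58.1 (R 4.3.3; normexp, offset 50), followed by loess within arrays, in which controls and outlier flags had weight 0. Outlier spots were then left out and spots of a probe averaged. Probes well above background on all 4 arrays in at least 1 condition were tested (13783, of which 13781 gave a ratio). The fit (lmFit, eBayes) held a treatment and a dye term across all probes, with 2 residual and 5.09 prior degrees of freedom and Benjamini-Hochberg adjustment (threshold 0.05). The 4 arrays limit the precision.

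Accessions were matched without versions to RefSeq genes (Sscrofa11.1), which named 6700 probes. For list counts, the tested probe with the highest mean signal stood for its gene. Named were all members, the 2 highest and 2 lowest of each list, other list genes where useful, and the 3 genes nearest to each member. For 1 list gene the values are not reported here. Sequences and coordinates were not used here.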

Additional observations from a re-analysis of the deposited data

Results flagged for a closer look

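In 2 lipid genes that are no members, array 1 lay far from the other arrays by Dixon's criterion for 4 values. SLC27A1, a fatty acid transporter, stood at 0.51 on array 1 and between -0.24 and -0.16 on the others. ACADL, a long-chain acyl-CoA dehydrogenase, stood at -0.88 on array 1 and between -0.09 and 0.01 on the others. These were 2 of 67 groups examined, whereas chance alone marks about 1 in 20, and no member probe was marked.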

How the results depend on the processing

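No member probe passed adjustment under any of the 15 settings that test single probes. Over all tested probes limma called 0 under these settings, except 17 (14 higher) without array 2, so that leaving out an array gave 0 to 17, and 2 genes, both lower, in the test on the mean of each gene's probes. The brightest probe of 6 member genes, or the mean of their probes, kept the sign of its ratio in 93 of 96 values. In part this was fixed in advance. A variance trend, leaving out the dye term, either change of the brightness filter and quantile scaling of mean signal leave each ratio as it is. The authors' value table also repeats the scanner's ratio, so the count overstates how far the settings agree. The sign turned for SREBF1 on the mean of its probes (-0.08), for ACLY without array 1 (leaving out an array gave -0.02 to 0.41) and for INSIG1 without array 4 (-0.18 to 0.37). Without array 1, FASN was at 0.56 and its unadjusted p was above 0.05, and over the other 3 omissions its highest value was 0.78. With median centring in place of loess the median of all tested probes moved to 0.28. FASN was then at 1.07, SCD at 0.63 and FDPS at 0.80, which is 0.79, 0.35 and 0.52 above that median. The list medians were then 0.27 for sterol synthesis (7 of 8 above 0) and 0.37 for SREBP regulators (8 of 11 above 0), or -0.01 and 0.09 against all tested probes. Leaving out an array gave -0.21 to 0.03 for SREBP regulators. The cause of these changes was not tested. Other tested probes turned too: 2 of 7 SCD probes were below 0 without array 1, and without array 4 SCD A_72_P586756 was at -0.07 and FDPS A_72_P661524 at -0.34. Each array holds both RNAs, so each ratio is already a paired difference. ACACA had no tested probe and enters none of this. Signal over background limited 7 member probes, of which none was above background in over 1 Cy3 channel.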
